A study of Rattus norvegicus with 22 samples.

Results

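Insc and Alpl are 2 of the 18166 genes whose liver level was read after rats received GSK932121A, a drug that blocks complex III of the mitochondrial respiratory chain. Each was measured by 1 of the 36685 probe sets of the array, 17619798 for Insc and 17811709 for Alpl, found by its single gene symbol in the platform annotation. They were picked by name because both lay far above vehicle level in treated livers. The size of that rise therefore chose them, and it is given below as a description, with no test.

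The arrays came from 22 female Crl:CD(SD) rats, an outbred Sprague-Dawley stock, with 1 array per animal. The rats are listed at 12 weeks of age, within a stated span of 10 to 14 weeks. In the treated group, 10 livers came from rats given 1 intraperitoneal dose of GSK932121A at 50 mg/kg, a dose that the study chose because it was acutely toxic, and their exposure lasted 5 h. The vehicle group held 12 livers from rats given the same suspension of mannitol, hydroxypropylmethylcellulose and sodium dodecyl sulphate in water without the drug, at the same volume of 10 mL/kg. No sampling time is stated for it. The submitters had left out 2 dosed animals whose plasma held little drug, so the treated group is a selection on exposure. Frozen median lobe was used throughout.

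Insc, the inscuteable spindle orientation adaptor, links the polarity protein Par3 to the LGN protein (gene Gpsm2), which anchors dynein at the cell cortex and so sets the axis of division in dividing epithelial cells and neural progenitors. Alpl is the tissue-nonspecific alkaline phosphatase, held on the outer face of the cell membrane by a GPI anchor. It splits phosphate from pyrophosphate, pyridoxal phosphate, phosphoethanolamine and adenine nucleotides, is needed for bone mineral, and in liver sits on the canalicular membrane, where its release into blood marks cholestasis.

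The values are log2 signals from RMA. Array medians ran from 4.73 to 4.85, and arrays correlated with each other, across genes, at 0.971 to 0.991. In a limma fit over all genes, 2244 passed an adjusted p under 0.05 (Benjamini-Hochberg), which is 12.4% of genes. The rises made up 5.31% and the falls 7.05% of the genes tested. Albumin, the defining hepatocyte product, stood at 13.4 in both groups.

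The letters before the start sites of the 2 genes are shown because the promoters differ in make-up although the genes were chosen for a like response. Both are the 250 bases before the start site in the RefSeq promoter table (GRCr8), written 5′ to 3′ along the gene's strand. The window for Insc is chr1:178427173-178427422 on the plus strand, and that for Alpl is chr5:155289786-155290035 on the minus strand. The last 63 bases of the Insc window lie inside the span that RefSeq gives the gene, whose outermost start is further upstream, and 0 bases of the Alpl window do. Other transcripts of either gene may start elsewhere. Capitals mark the only motif matches found.
Insc: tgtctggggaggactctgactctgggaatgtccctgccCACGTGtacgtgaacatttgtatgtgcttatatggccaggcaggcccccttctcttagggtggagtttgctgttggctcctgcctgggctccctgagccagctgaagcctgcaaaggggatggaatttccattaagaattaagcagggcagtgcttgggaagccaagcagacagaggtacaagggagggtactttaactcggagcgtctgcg
Alpl: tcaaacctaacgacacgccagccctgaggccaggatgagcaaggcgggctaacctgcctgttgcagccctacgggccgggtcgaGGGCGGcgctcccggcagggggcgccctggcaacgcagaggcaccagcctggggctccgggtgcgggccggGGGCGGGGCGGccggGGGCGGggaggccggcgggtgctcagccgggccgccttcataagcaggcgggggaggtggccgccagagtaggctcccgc

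The capitals in Insc are 1 E-box (CACGTG) at bases -212 to -207 from the start. Those in Alpl are 4 GC boxes (GGGCGG), of which the pair at -95 to -90 and at -90 to -85 shares 1 base, with the others at -166 to -161 and -80 to -75. The Alpl window had a GC content of 76.0% and 25 CG pairs, and 97.1% of promoters had a lower GC content. The Insc window had 54.8% and 5 CG pairs, near the medians of 51.2% and 5. Among 33469 promoter windows of the same length, searched on both strands, 5.6% held the E-box and 30.5% a GC box. The other 7 motifs had no match in either window: the cAMP response element TGACGTCA (in 1.6% of promoters) and its core TGACG (18.2%), AGAACA from the glucocorticoid receptor site (17.5%), the AP-1 site TGANTCA (6.3%), the amino acid response element TGATGNAA (3.4%), the CCAAT box CCAAT (34.0%) and the TATA box TATAAA (12.9%). The full cAMP element contains its core, so these overlap. A match is a description of letters and no match says only that those letters are not in this window.

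Insc rose to a level that differed more widely between treated livers than between vehicle livers. In the 12 vehicle livers its log2 signal ran from 6.30 to 7.56, with a median of 6.82. In treated replicates 13, 14, 16, 18, 22 and 23 it was 10.54, 10.27, 10.59, 10.76, 10.36 and 10.51. In replicates 17, 20, 21 and 24 it was 9.12, 8.70, 9.52 and 8.24. All 10 treated livers stood above all 12 vehicle livers, as was so for 0.457% of genes, and the lowest treated value exceeded the highest vehicle value by 0.68. The means were 6.82 ± 0.32 (SD, n = 12) and 9.86 ± 0.90 (SD, n = 10), a log2 difference of 3.04 (SE 0.25) or 8.24-fold, the 6th largest rise among all genes. Single treated livers lay between 2.68-fold and 15.4-fold above the vehicle mean. In whole-liver RNA, a change in the share of cells that express a gene and a change in the RNA per cell cannot be told apart.

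Alpl showed a rise of similar size with a wider spread. Its vehicle values ran from 5.01 to 5.88, with a median of 5.58. In treated replicates 13, 14, 16, 18, 22 and 23 it was 8.81, 9.34, 8.51, 9.03, 7.97 and 9.07. In replicates 17, 20, 21 and 24 it was 6.88, 8.03, 8.44 and 5.91. Every treated liver was above every vehicle liver, but replicate 24 by only 0.03, so the groups barely separate. The means were 5.55 ± 0.25 (SD, n = 12) and 8.20 ± 1.07 (SD, n = 10), a log2 difference of 2.65 (SE 0.28) or 6.28-fold, the 12th largest rise. Single treated livers lay from 1.29-fold to 13.8-fold above the vehicle mean.

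**Figure D1:**
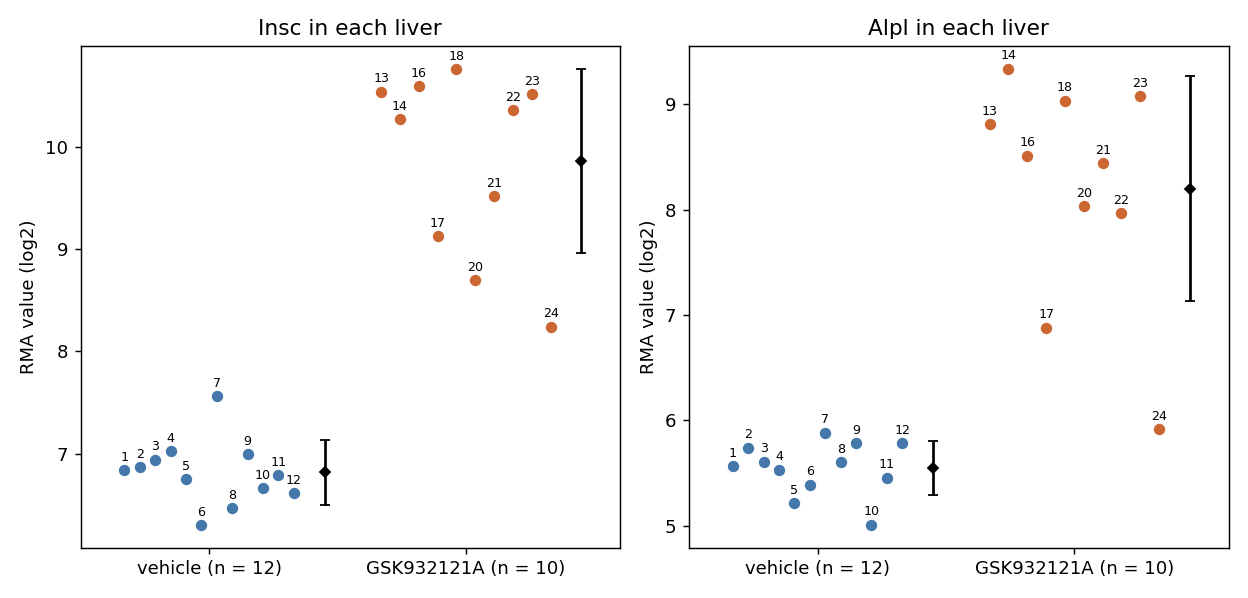
Log2 RMA value of Insc and of Alpl in each liver, vehicle in blue and GSK932121A in orange, with the replicate number above each point and the group mean ± SD as a black diamond. Treated Insc values reach from 8.24 to 10.76 and treated Alpl values from 5.91 to 9.34, with replicate 24 lowest in both.

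The spread among treated livers was part of the pattern. The SD of Insc was 2.84 times that among vehicle livers, and that of Alpl 4.24 times. Between the lowest and the highest treated liver Insc spanned 5.74-fold and Alpl 10.7-fold. The treated Insc values left a gap of 0.75 between replicates 21 and 14. Above it, 6 livers lay within 0.49 of each other, and below it 4 livers were spread over 1.28. Alpl had no such order: replicate 21 of the lower set (8.44) exceeded replicate 22 of the upper set (7.97).

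Over all 10 treated livers, Insc and Alpl rose and fell together. Pearson's r was 0.82 (permutation p = 0.00501, adjusted 0.01002 over the 2 groups) and Spearman's rho was 0.65 (p = 0.0493, adjusted 0.0941). Without replicates 20 and 24, the farthest from the median of Insc, r was 0.74 (exact permutation p = 0.0409, n = 8). Among the 6 livers above the Insc gap alone, r was 0.085 (exact permutation p = 0.878) and rho -0.26 (exact permutation p = 0.658). These 6 were split off on Insc after its values were seen and cover 0.49 of its 2.52 range, which by itself lowers r, so within them a relation was not detectable with that number.

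Among the 12 vehicle livers r was 0.49 (permutation p = 0.109) and rho 0.51 (p = 0.0941). Without replicates 6 and 7 the r was 0.24 (p = 0.504). The slope of Alpl on Insc was 0.98 in treated and 0.39 in vehicle livers. The difference in slope did not pass in limma (p = 0.181, adjusted p = 0.681), so the groups are not shown to differ in this relation.

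**Figure D2:**
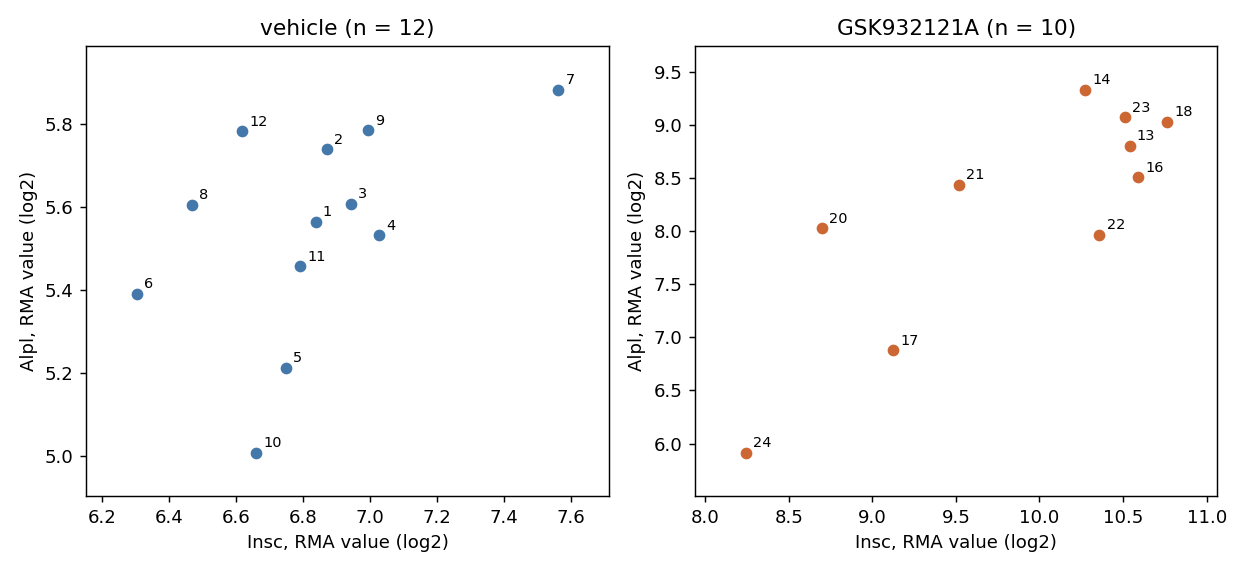
Alpl against Insc, both as log2 RMA values, in vehicle livers at left and GSK932121A livers at right, with replicate numbers. At right, 6 livers lie at an Insc value of 10.27 or more with no clear slope among them (r = 0.085), and replicates 17, 20, 21 and 24 lie to their left.

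The 4 treated livers below the gap also stood together on the first principal component of the treated arrays, computed without Insc and Alpl, which held 21.9% of the variance. Its scores were -20.8 to -13.4 in those 4 and 3.29 to 21.1 in the other 6. Its r with Insc was 0.91 (permutation p = 0.00053) with rho 0.77 (p = 0.0126), and without replicates 17 and 24 r was 0.88 (exact permutation p = 0.0099, n = 8). Its r with Alpl was 0.82 (p = 0.00116) with rho 0.93 (p = 0.00036), and without those replicates r was 0.76 (exact permutation p = 0.0272, n = 8). Among all genes, 99.4% had a weaker correlation with the component than Insc, and 97.3% a weaker one than Alpl. So both genes followed the main axis along which treated livers differed. The array median had r = -0.23 with Insc (permutation p = 0.52) and -0.36 with Alpl (p = 0.315). RMA normalises between arrays, and the medians ran only from 4.73 to 4.85. These values therefore cannot show whether overall signal or array quality differed along the component.

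Which genes followed Insc was asked within each group, so that the group difference played no part. Among treated livers, limma called 170 genes, 0.936% of those tested, at an adjusted p under 0.05. Of these, 150 (0.826%) followed Insc and 20 (0.11%) ran against it, and 1854 genes (10.2%) had an unadjusted p under 0.05. Of the 150, 133 (88.7%) also rose in the treated group and 0 fell. Of the 20, 17 (85%) fell. Over all genes 5.31% rose and 7.05% fell. Genes with both calls are read from the same treated arrays, so these counts describe the calls and are no separate evidence. The count fell to 111, 112 and 96 without replicate 17, 20 or 24, to 22 without replicates 20 and 24 together, to 0 among the 6 livers above the gap, and to 0 with the first principal component as a covariate. That component is built from the same genes and had r = 0.91 with Insc, so little of the variation of Insc is left in the last setting, and the 0 says nothing about single genes. The 6 livers above the gap likewise cover a small part of the range.

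The 10 genes with the highest r with Insc among treated livers ran from 0.96 to 0.98, where 90% of all genes lay between -0.63 and 0.63. They were Irs2, an adaptor of the insulin receptor, Ell2, an elongation factor of RNA polymerase II, Tsc22d2, Sik1, a salt-inducible kinase, Chac1, an enzyme that breaks down glutathione, Pde4dip, a scaffold of Golgi and centrosome, Igfbp1, a secreted binder of insulin-like growth factors, Etnk1, which makes phosphoethanolamine, Slc25a25, a mitochondrial ATP-Mg and phosphate carrier, and Papss2, which makes the sulfate donor PAPS. All 10 rose in the group comparison, from 1.25-fold for Papss2 to 12.7-fold for Chac1, where 5.31% of all genes rose. They were chosen on the same treated arrays, so this is a description. In limma 8 of them passed for co-variation, and Pde4dip (adjusted p = 0.0624) and Papss2 (0.079) did not.

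Irs2 had the highest r with Insc by a narrow margin, since Ell2 and Tsc22d2 also stood at 0.98, and Pde4dip had a higher rho (0.94). The log2 signal of Irs2 ran from 7.16 to 8.02 in vehicle livers, median 7.56, and from 8.43 to 10.69 in treated livers, median 10.29. No treated liver overlapped the vehicle range, and its SD among treated livers was 0.85, against 0.90 for Insc. Its r with Insc was 0.98 among treated livers (permutation p = 5e-05, rho 0.89 with p = 0.00106) and 0.96 without replicates 20 and 24. The limma adjusted p was 1.3e-05. Among vehicle livers its r was -0.12, and among the 6 upper treated livers 0.41.

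Chac1 ran from 6.08 to 6.94 in vehicle livers, median 6.48, and from 7.20 to 11.34 in treated livers, median 10.96. The groups did not overlap. Its r with Insc was 0.97 over 10 treated livers (permutation p = 0.00022, rho 0.72 with p = 0.023), 0.93 without replicates 20 and 24, and -0.21 among the upper 6. Sik1 ran from 6.99 to 8.47 in vehicle livers and from 8.90 to 11.42 in treated livers, again without overlap. Its r with Insc was 0.98 among treated livers (permutation p = 7e-05, rho 0.88 with p = 0.00164), 0.93 without replicates 20 and 24, and 0.50 among vehicle livers.

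The permutation p-values of genes named for their r are not adjusted for that choice, while the limma adjusted p is taken over all genes. Values among the 6 upper livers are given without a test, since those livers also served to choose the genes. For the 10 genes together, r without replicates 20 and 24 lay between 0.91 and 0.97. Among the 6 upper livers it lay between -0.21 and 0.78, median 0.42, with 9 of 10 positive. Among vehicle livers it lay between -0.12 and 0.50, with 0 of 10 at a permutation p under 0.05.

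**Figure D3:**
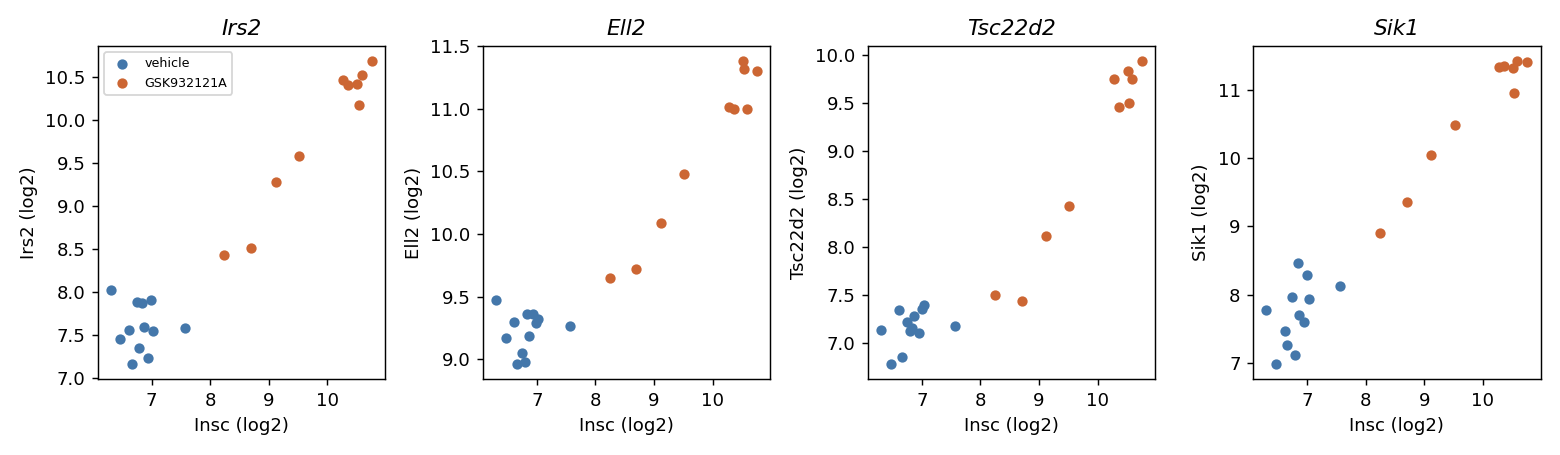
Log2 RMA values of the 4 genes with the highest r with Insc among treated livers (Irs2, Ell2, Tsc22d2, Sik1) against Insc, 1 point per liver, vehicle blue and GSK932121A orange. Treated points climb with Insc (r = 0.98 for each), while among vehicle points r lies between -0.12 and 0.50.

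On the other side, the 5 genes with the lowest r with Insc among treated livers ran from -0.94 to -0.92. They were Chtf8, a sister chromatid cohesion factor, Mrpl51, a mitochondrial ribosomal protein, Nek4, a NIMA-related kinase, Cdc42se1, a small binder of Cdc42, and Fzd8, a Wnt receptor. Limma called Nek4 (adjusted p = 0.0263) and Fzd8 (0.0155), and both calls were lost without replicate 24 (adjusted p = 0.193 and 0.15). Nek4 was also lost without any 1 of replicates 17, 20, 22 and 23. Fzd8 fell 1.79-fold in the group comparison, with 9 of 10 treated livers below all vehicle livers, Nek4 fell 1.28-fold and Chtf8 1.21-fold. Within the 6 upper livers Chtf8 had r = -0.94 and Nek4 0.41.

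Among vehicle livers limma called 0 genes for Insc, with 1697 at an unadjusted p under 0.05 (9.34% of genes). Vehicle values of Insc had an SD of 0.32, and this number of livers limits what could be called. Of the 150 genes called with Insc in treated livers, 68.7% had a positive r among vehicle livers, against 52.5% of all genes, with a median r of 0.16. Of the 20 called against Insc, 9 (45%) had a negative r there, and their median was 0.02. The highest r in vehicle livers was that of Dele1, which relays mitochondrial stress to the integrated stress response, at 0.94 (permutation p = 4e-05, rho 0.92 with p = 8e-05, limma adjusted p = 0.438). Without replicates 6 and 7 it was 0.80, and among treated livers it was -0.42. Fcgr3a, an Fc receptor of myeloid and NK cells, was the 1 gene of the 15 named there with a permutation p under 0.05 in treated livers too: r was 0.85 in vehicle and 0.81 in treated livers (p = 0.00079 and 0.00471), and it passed limma in neither group (adjusted p = 0.438 and 0.277). The lowest r was that of Atg5, a core autophagy gene, at -0.88 in vehicle and -0.62 in treated livers.

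Fewer genes followed Alpl. Among treated livers limma called 4 genes, 0.022% of those tested, all with a positive slope: Cited2, a CBP and p300 binding coregulator, Dio3, the deiodinase that inactivates thyroid hormone, Mt1f, a metallothionein, and Srrd. At an unadjusted p under 0.05 the count was 1716 (9.45%). The 4 calls had the same adjusted p of 0.0364. The count moved from 0 without replicates 14, 16 or 24 to 57 without replicate 20 and 48 without replicate 21. It was 1 without 13 or 17, 7 without 22, and 0 among the 6 livers above the Insc gap, so it has no stable size.

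By r, the nearest gene to Alpl was Nudt4, a diphosphoinositol polyphosphate phosphatase. Nudt4 ran from 9.75 to 10.62 in vehicle livers, median 10.14, and from 10.67 to 11.28 in treated livers, median 11.13. The groups stood just apart. Nudt4 rose 1.95-fold, and its r with Alpl among treated livers was 0.98 (permutation p = 4e-05, rho 0.95 with p = 0.00012). It was 0.95 without replicates 17 and 24 and 0.93 among the 6 livers above the Insc gap. The limma adjusted p was 0.116, the SD of Nudt4 among treated livers was 0.19, and the r among vehicle livers was -0.11.

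The next were Pcsk6, a proprotein convertase (r = 0.94), Nifk, a nucleolar protein (0.94), the growth factor receptor Fgfr2 (0.93), the calcium pump Atp2b1 (0.92), Mt1f (0.92), Srrd (0.92), Urb2, a ribosome biogenesis factor (0.91), the core splicing factor Prpf8 (0.91) and angiotensinogen, Agt (0.91). Of these 10 genes, 9 rose in the group comparison, against 5.31% of all genes, and Fgfr2 did not pass. They too were chosen on the treated arrays. The call of Pcsk6 (adjusted p = 0.0316) was lost in 8 of 22 fits that left out 1 liver. Among vehicle livers 1 of the 10 had a positive r with Alpl.

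Opposite to Alpl ran Prkd3, a protein kinase D. It lay between 9.12 and 9.50 in vehicle livers, median 9.33, and between 8.47 and 9.06 in treated livers, median 8.58. All 10 treated livers were below all vehicle livers, as was so for 0.281% of genes. Prkd3 fell 1.57-fold. Its r with Alpl was -0.97 among treated livers (permutation p = 9e-05, rho -0.93 with p = 0.00037), -0.82 without replicates 17 and 24, and 0.06 among vehicle livers. The others were Tex9 (-0.96), the kinase Mapk7 (-0.92), Znf740 (-0.91) and the splicing-related Pnisr (-0.90). Among the 6 livers above the Insc gap these 5 genes had r between -0.98 and -0.85. They were chosen on arrays that include these 6, so this is a description. None passed limma for co-variation, where the adjusted p ran from 0.0653 to 0.149.

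**Figure D4:**
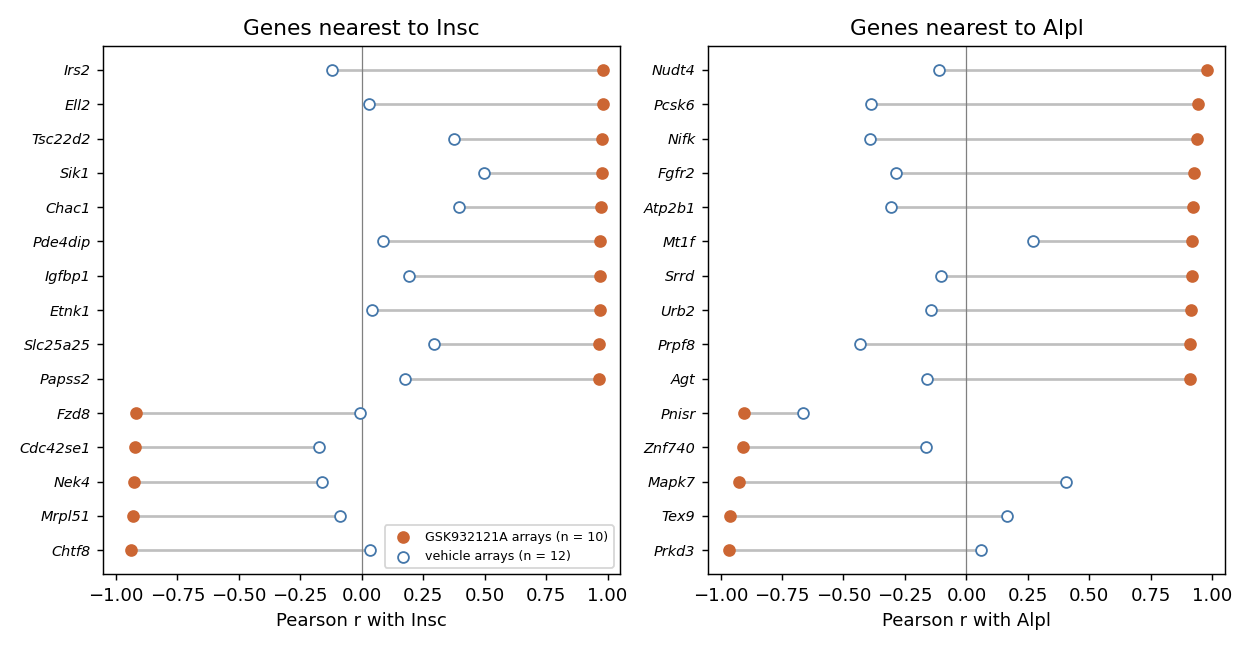
Pearson r of the 15 named genes with Insc (left) and with Alpl (right), filled orange for the 10 GSK932121A livers that chose them and open blue for the 12 vehicle livers. Orange points lie beyond 0.90 in either direction by choice, and blue points are spread on both sides of 0.

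Among vehicle livers limma called 0 genes for Alpl too, with 1468 at an unadjusted p under 0.05 (8.08% of genes). The highest r were those of Ephx1, the microsomal epoxide hydrolase, at 0.88 (permutation p = 0.00013, rho 0.82 with p = 0.00205, limma adjusted p = 0.0894), Hist2h3c2 at 0.86 and Gstm7, a glutathione transferase, at 0.86. Car3, a carbonic anhydrase abundant in rat liver, followed at 0.85 with the same adjusted p of 0.0894. Among treated livers r was -0.39 for Ephx1, 0.65 for Hist2h3c2, -0.25 for Gstm7 and -0.18 for Car3. The lowest were Mon2 at -0.90 and Vps13d at -0.89.

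No gene passed for a difference in slope between treated and vehicle livers, in limma, for either gene: 0 genes for Insc, with 1904 at an unadjusted p under 0.05 (10.5%), and 0 for Alpl, with 1517 (8.35%). Of the 100 genes with the highest r, among 10228 ranked, 1 was common to treated and vehicle livers for Insc (1% of each list) and 1 for Alpl (1%). A list of 100 is itself 0.978% of the genes ranked, so the overlap was at that background.

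The nearest genes of Insc and of Alpl overlapped in treated livers. Of the 100 highest for each, 34 were shared, 34% of each list, against 3 shared in vehicle livers (3%). Both rankings use the same arrays, on which Insc and Alpl are correlated. Highest in both were Prpf8 (r = 0.95 with Insc and 0.91 with Alpl), the cell surface proteoglycan Sdc4 (0.91 and 0.91), Agt (0.90 and 0.91), Cited2 (0.89 and 0.91), the nucleolar deubiquitinase Usp36 (0.89 and 0.90), Lysmd3 (0.90 and 0.88), the translation factor Eif4g3 (0.90 and 0.87), Topors (0.92 and 0.87), the cytokine Il1a (0.89 and 0.87) and Igfbp1 (0.97 and 0.87). Of these 10, chosen on the same treated arrays, 8 rose in the group comparison, against 5.31% of all genes. Sdc4 rose 2.30-fold with all 10 treated livers above all vehicle livers, and Topors (adjusted p = 0.487) and Il1a (0.159) did not pass. For co-variation with Alpl in limma, Cited2 passed (adjusted p = 0.0364) and the others did not (0.0534 to 0.24). For co-variation with Insc, all but Prpf8 passed (0.126 for Prpf8).

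The partners of Insc did not rise with it. Of 26 genes of spindle orientation and cell polarity, 23 were measured, of which 0 rose and 2 fell (0% and 8.70%, against 5.31% and 7.05% of all genes), and the median log2 difference was -0.05 against -0.01 for all genes. Gpsm2, which encodes the LGN protein that Insc binds, fell. Its log2 signal ran from 5.53 to 5.97 in vehicle livers, median 5.73, and from 4.50 to 5.24 in treated livers, median 5.03. All 10 treated livers lay below all 12 vehicle livers. The means were 5.70 ± 0.13 (SD, n = 12) and 4.97 ± 0.25 (SD, n = 10), a fall of 1.66-fold (limma adjusted p = 9.7e-07). Its r with Insc among treated livers was -0.29. Ric8a, a G protein exchange factor, fell 1.14-fold (adjusted p = 0.0312), a call lost in 6 of 22 fits that left out 1 liver and after cyclic loess scaling. Pard3, which encodes Par3, had a difference of -0.07 (adjusted p = 0.538) and Gpsm1, the paralog of Gpsm2, one of 0.15 (adjusted p = 0.232).

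No called change was found among genes of mitosis. Of 20 listed, 18 were measured, and limma called 0, against 12.4% of all genes, a share that amounts to few genes in a list of this size. Their median log2 difference was -0.02. Vehicle means ran from 2.88 for Ttk to 6.80 for Ccnb2. RMA compresses small changes of dim probe sets, so an absent call says little for the dimmest of these genes. Their mean shift, set against vehicle, ran from -0.25 to 0.16 in vehicle livers and from -0.13 to 0.27 in treated livers, which overlap.

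The other alkaline phosphatases stayed near their vehicle level. All 4 measured of 5 listed were below a log2 value of 5, and none passed, where 12.4% of all genes did. Alpi had a log2 difference of 0.02 (SE 0.06), Akp3 one of 0.03 (SE 0.09), Alpp one of -0.14 (SE 0.11) and Alpg one of -0.06 (SE 0.11). The log2 difference of Alpl was 2.65.

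Alpl needs a GPI anchor to reach the membrane. Of 31 genes of anchor assembly and release, 27 were measured, of which 1 rose and 6 fell (3.70% and 22.2%, against 5.31% and 7.05% of all genes), with a median log2 difference of -0.08. The largest fall was that of Pigb, a mannosyltransferase of the anchor. Pigb lay between 5.11 and 5.73 in vehicle livers and between 4.61 and 5.30 in treated livers, with 9 of 10 treated livers below all vehicle livers, and fell 1.48-fold (limma adjusted p = 0.000113). Pigv, also a mannosyltransferase, fell 1.32-fold, Pigx 1.25-fold and Pigf 1.25-fold. Pgap2 fell 1.19-fold and Pgap1 1.16-fold, the latter lost in 13 of 22 fits that left out 1 liver. Dpm1, a subunit of the dolichol phosphate mannose synthase, rose 1.15-fold at an adjusted p of 0.0499, a call lost in 17 of 22 such fits.

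Genes that make or use the substrates and products of Alpl were called one by one. Among 10 measured of 11 listed for pyrophosphate and phosphate, 1 rose and 2 fell (10.0% and 20.0%, against 5.31% and 7.05% of all genes). Slc20a1, the phosphate importer PiT-1, rose 2.62-fold (adjusted p = 6.59e-05), from a range of 8.02 to 9.16 in vehicle livers to 8.88 to 10.73 in treated livers, with 8 of 10 above all vehicle livers. Its r among treated livers was 0.72 with Insc and 0.64 with Alpl. Abcc6, the exporter that feeds plasma pyrophosphate, fell 1.17-fold (adjusted p = 0.0164, and 0.052 after cyclic loess) and the mitochondrial pyrophosphatase Ppa2 fell 1.16-fold. Enpp1, which makes pyrophosphate outside the cell, had a difference of -0.18 (adjusted p = 0.0647), and the pyrophosphate transporter Ankh one of -0.03 (adjusted p = 0.902).

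Of 3 measured genes of phosphoethanolamine, among 5 listed, 1 rose and 0 fell (33.3% and 0%, against 5.31% and 7.05% of all genes). The riser was Etnk1, the kinase that makes phosphoethanolamine, which had been among the nearest genes of Insc. It ran from 6.43 to 6.92 in vehicle livers and from 6.61 to 9.30 in treated livers, where 8 of 10 stood above all vehicle livers, and it rose 2.87-fold (adjusted p = 0.000138). Its r among treated livers was 0.97 with Insc and 0.76 with Alpl.

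Of 12 measured genes of extracellular adenosine, 0 rose and 3 fell (0% and 25%, against 5.31% and 7.05% of all genes). The nucleoside transporter Slc29a1 fell 1.38-fold (adjusted p = 0.0147). The nucleotidases Entpd5 and Entpd8 fell 1.22-fold and 1.18-fold, calls lost in 15 and 18 of 22 fits that left out 1 liver. Nt5e, which makes adenosine from AMP as Alpl can, had a difference of 0.18 (adjusted p = 0.316). Both measured genes of vitamin B6 handling, of 4 listed, were uncalled, where 12.4% of all genes were called. Among them the kinase Pdxk had a difference of 0.04 (adjusted p = 0.928).

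Of 10 measured genes of bile transport and cholestasis, among 13 listed, 1 rose and 0 fell (10.0% and 0%), near the 5.31% and 7.05% of all genes for so short a list. The riser was Cyp7a1, the rate-limiting enzyme of bile acid synthesis, at 1.44-fold (adjusted p = 0.0161), with 1 of 10 treated livers above all vehicle livers and an r of 0.24 with Alpl among treated livers.

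**Figure D5:**
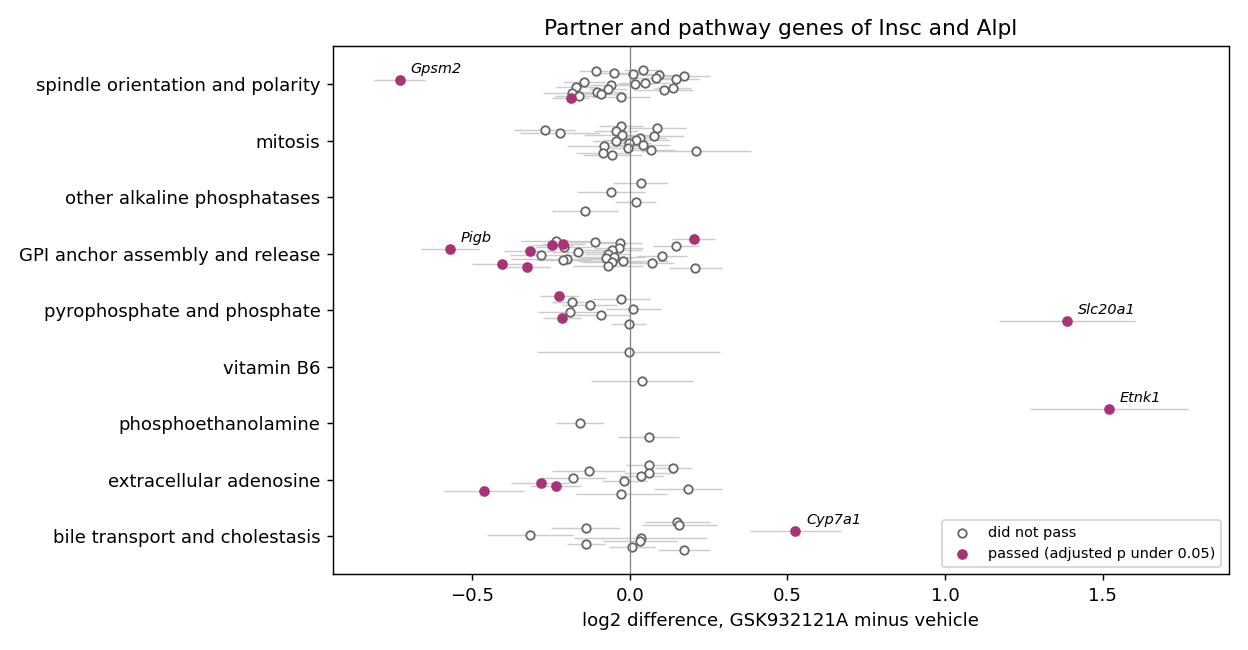
Log2 difference, GSK932121A minus vehicle, for each measured partner or pathway gene of Insc and Alpl, grouped by list, with the standard error from limma as a grey bar. Filled points passed at an adjusted p under 0.05. Etnk1 (1.52) and Slc20a1 (1.39) lie farthest right and Gpsm2 (-0.73) and Pigb (-0.57) farthest left.

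Genes of 4 response programmes were set beside Insc and Alpl. The lists share some genes and were chosen with earlier results of these arrays known, so their direction is not independent evidence. All 15 measured genes of a glucocorticoid-responsive list rose (100%, against 5.31% of all genes), with a median log2 difference of 1.24. Among treated livers their median r was 0.80 with Insc and 0.66 with Alpl, where the medians over all genes were -0.04 and -0.01. Tat, a liver aminotransferase, had r = 0.96 with Insc, though it did not pass limma for that co-variation (adjusted p = 0.156). Fkbp5, a cochaperone of the receptor, had r = -0.28 with Insc although it rose 1.74-fold. Of 16 genes of cAMP and fasting, 11 rose and 1 fell (68.8% and 6.25%, against 5.31% and 7.05% of all genes). Their median r was 0.87 with Insc and 0.66 with Alpl, and Ppargc1a, the coactivator PGC-1alpha, had 0.92 and 0.74. Of 26 immediate early genes 13 rose and 0 fell (50.0% and 0%, against the same 5.31% and 7.05%), with medians of 0.66 and 0.58, and Nr4a3 had 0.95 and 0.72.

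The integrated stress response list was split. Of its 28 measured genes 11 rose and 3 fell (39.3% and 10.7%, against 5.31% and 7.05% of all genes). The median r was 0.01 with Insc and 0.13 with Alpl. The amino acid transporters Slc1a4 (r = 0.95 with Insc and 0.85 with Alpl) and Slc38a2 (0.93 and 0.71) had a high r with both genes, though with Alpl neither passed limma, while Psat1, a serine synthesis enzyme that rose 1.35-fold, had -0.15 and -0.04. In vehicle livers the median r with Insc of these 4 lists lay between 0.23 and 0.33, and that with Alpl between 0.15 and 0.23.

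Alpl is also made by neutrophils, bile duct cells and stromal cells, so markers of other cell types were read beside it. For neutrophils 7 of 8 markers were measured, none passed, and the log2 of their summed level ran from 6.86 to 7.43 in vehicle livers and from 6.89 to 7.69 in treated livers. S100a8, a defining neutrophil marker, was at 2.25 and 2.20 on average. Of the 7 cholangiocyte markers 6 were measured, and the sum ran from 7.02 to 7.57 in vehicle livers and from 7.01 to 7.95 in treated livers. All 8 markers of stellate cells or fibroblasts were measured, with sums of 10.02 to 10.58 and 10.01 to 10.84. The 6 lymphocyte markers gave 7.72 to 8.47 and 7.91 to 8.72, and the 2 measured erythroid markers, of 5 listed, 5.42 to 6.08 and 5.33 to 6.23. No gene of these 4 lists passed. Over all genes 12.4% passed, a share that amounts to few genes in lists of this size, that of neutrophils included.

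Of the 8 Kupffer cell markers, Cd163 rose by 0.36 on the log2 scale and the sum ran from 10.73 to 11.52 in vehicle livers and from 10.81 to 11.39 in treated livers. Of the 4 measured sinusoidal markers, among 8 listed, Lyve1 rose by 0.22, with sums of 10.25 to 10.52 and 10.37 to 10.61. Of the 6 measured hepatocyte markers, among 8 listed, Cps1 rose by 0.32 and Apoh fell by 0.20, with sums of 14.98 to 15.20 and 15.04 to 15.18. Over all genes 5.31% rose and 7.05% fell, and the calls in these short lists are single genes. The summed levels of every list overlapped between the groups. Single treated livers still stood out when each list was averaged over its genes against the vehicle mean. Replicates 24 and 18 were above all vehicle livers for cholangiocyte markers (0.56 and 0.50, vehicle maximum 0.27) and for stellate cell markers (0.57 and 0.52, vehicle maximum 0.26), and replicates 20 and 16 for neutrophil markers (0.64 and 0.36, vehicle maximum 0.32). Replicate 24 had the least Insc and Alpl, and replicate 18 the most Insc. Among treated livers the median r with Alpl was -0.40 over cholangiocyte markers, with 0 of 6 positive, and 0.40 over Kupffer cell markers, with 7 of 8 positive. The part of any cell type in the 2 rises was not tested.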

How the data were processed

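Liver RNA of 22 rats was hybridised to Affymetrix whole-transcript arrays, 1 per animal. The deposited log2 values were made with RMA, which corrects background, normalises between arrays and summarises probe sets, per the submitters' processing notes. Which software and version ran it, and how probe sets were defined, is not given in the sources used here. RMA removes shifts common to all genes and compresses small changes of dim probe sets, and the number of arrays limits precision.

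Groups and replicate numbers came from the labels, which give no batch. Replicates are separate animals. Of 36685 probe sets, 18511 had 1 symbol, 575 several and 17599 none. Symbols were checked by Entrez identifier (18394 matched, 0 changed). For 291 genes with more than 1 probe set the one of highest mean was kept, giving 18166 genes.

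The group comparison, the co-variation of every other gene with Insc or Alpl within a group, and the difference of slopes were fitted in limma 3.58.1 (R 4.3.3), with Benjamini-Hochberg adjustment over all genes and a threshold of 0.05. Single correlations used two-sided permutation tests of 100000 resamples, or exact ones for 6 or 8 arrays (Python 3.11.15, numpy 2.4.6, pandas 2.3.3, scipy 1.17.1; plots with matplotlib 3.10.9). Different genes' correlations use the same arrays and are not independent.

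Insc, Alpl and the gene lists were chosen with earlier results of these data known. The genes named were, for each of Insc and Alpl and each group, the 10 of highest and 5 of lowest r among genes of mean log2 at least 5 (unnamed loci and microRNAs left out), the 10 highest shared within the top 100, up to 4 called members a direction of each pathway list, all other alkaline phosphatases, Pard3, Gpsm1 and Gpsm2. Beyond these, Cited2, Dio3, Pgap1, Pgap2, Enpp1, Ankh, Nt5e, Pdxk, Fkbp5, Psat1, some cell type markers and the neighbouring genes in the closing section were named after their values were seen.

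Alternatives were median centring, quantile and cyclic loess scaling, filters at a mean log2 of 5 or 7, the mean of probe sets, trend and robust settings, ranks, the first principal component as a covariate, and each array left out. The arrays above the Insc gap, the omission of replicates 20 and 24 together and the alternatives of the slope were added after the data were seen. On simulated data for 18166 genes, the group fit recovered 22.4% of 67 genes changed 1.2-fold, 92.5% of 67 changed 1.5-fold and 100% of 66 changed 2-fold, with 10 false calls. The fit on 10 treated arrays recovered 21% of 100 genes at an r of 0.9 and 60% of 100 at 0.97, with 3 false calls. Plasma exposure and body temperature were not used here.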

Additional observations from a re-analysis of the deposited data

Results flagged for a closer look

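In 7 of 134 genes examined, 1 of the 10 treated livers stood far from the other 9, measured by its distance to the nearest other liver over the range of the group, in each case as the lowest liver. Chance flags about 1 in 20 groups. Replicate 24, the lowest for Insc and Alpl, was also far the lowest for 3 metallothioneins: Mt1 at 10.78 (next liver 11.95), Mt1f at 9.22 (next 10.63) and Mt2A at 11.63 (next 12.78). Each of these values lay within the vehicle range. Replicate 24 was also lowest for the calcium pump Atp2b1, at 7.25. The other 3 were Eif4ebp1, an inhibitor of translation, at 6.69 in replicate 13, Cth, a cysteine synthesis enzyme, at 11.30 in replicate 20, and Atg5 at 6.42 in replicate 18.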

How the results depend on the processing

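The log2 differences of Insc and Alpl kept their direction in every setting tried, at 2.94 to 3.22 and 2.53 to 2.91 with 1 array left out. The count of 2244 genes that differed between the groups ran from 1854 to 2386 with 1 array left out and was 1217 among the 4199 genes of mean log2 at least 7. Cyclic loess scaling gave 1119 rises and 1001 falls in place of 964 and 1280, so the larger side turned (43.0% of calls were rises, and 52.8% after it). The 170 genes that followed Insc in treated livers became 31 with ranks, 0 with the first principal component as a covariate, 96 to 154 with 1 array left out (84 of the 96 were among the 170), 22 without replicates 20 and 24 (20 among the 170) and 0 above the Insc gap, where r of Insc with Alpl was 0.085. The 4 genes that followed Alpl became 12 with median centring, 21 with cyclic loess, 30 and 22 at a mean log2 of at least 5 or 7, 13 with the mean of probe sets, 9 with trend and robust settings, 1 with the first principal component, 0 without replicates 20 and 24, 0 above the gap and 0 to 57 with 1 array left out. In vehicle livers the count for Alpl ran from 0 to 1. Slope differences ran from 0 to 1 for Insc and from 0 to 2 for Alpl, with 2 under cyclic loess. Fits on fewer arrays or genes have other power, and otherwise the cause was not tested. No value that had passed its test changed sign, while some differences near 0 that had not passed did. Over all named genes, calls of the group difference were lost 14 times and gained 6 times across the other settings, and lost 111 times and gained 11 times with 1 array left out. No paired analysis was possible because the groups share no replicate numbers.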

Other observations

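The genes next to Insc and Alpl in gene order (GRCr8, the nearest 5 measured on each side) did not share the size of their rises. Around Insc, the 10 log2 differences ran from -0.33 to 0.31. Of these, Cyp2r1, the vitamin D 25-hydroxylase, fell by 0.33 on the log2 scale (limma adjusted p = 0.0113) and C1h11orf58 rose 1.24-fold (adjusted p = 0.000162). Pde3b, a phosphodiesterase that breaks down cAMP, had a difference of 0.27 (adjusted p = 0.112) and an r of 0.87 with Insc among treated livers. Around Alpl, the 10 differences ran from -0.03 to 0.52. The adjoining Ece1, endothelin converting enzyme, rose 1.23-fold (adjusted p = 0.00904) and the next gene, Eif4g3, rose 1.43-fold (adjusted p = 0.012). Among treated livers their r with Alpl was 0.87 and 0.87, and Eif4g3 did not pass limma for that co-variation (adjusted p = 0.0653). The calls among these neighbours were 2 of 10 around each gene, against 12.4% of all genes.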
